A study of Heliconius melpomene malleti and Heliconius melpomene plesseni with 96 samples.

Results

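The comparison described here is that of the races Heliconius melpomene plesseni and Heliconius melpomene malleti in the proximal section of the pupal forewing on day 3. It rests on 6 of the 96 arrays of the series, namely 3 of plesseni (replicates 10, 80 and 84) and 3 of malleti (replicates 9, 79 and 83), taken by their labels for race, tissue and developmental stage. The whole series covered both races on days 1, 3, 5 and 7 in 4 tissues (proximal forewing, distal forewing, hindwing and eye), with 3 independent replicates in each of the 32 groups. One sample of total RNA, converted to Cy3-labelled cDNA, was hybridised to each array, and replicate numbers run once through the series. Neither race received a treatment, and the labels state neither sex, rearing conditions nor the number of pupae behind a sample, nor whether sections of 1 individual were split over arrays. In whole wing sections, fewer cells of a type and less RNA per cell cannot be told apart.

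Heliconius butterflies are known for warning colours that differ between races of 1 species and are shared between species by mimicry. The pattern is built by wing scales, each the product of 1 cell, which take up ommochrome pigments in red and orange areas and melanin in black areas late in pupal life. Malleti carries a red-orange patch at the base of the forewing and rays on the hindwing, whereas plesseni has a divided forewing band and lacks the basal patch and the rays. The proximal forewing section therefore includes wing surface that differs in colour between the adults. Ac, B/D and Yb are names long used in this genus for mapped loci that control the shape of the forewing band, the red elements and the yellow or white elements.

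An intensity was recorded for 12832 features on every array, of which 12778 were predicted genes named by a scaffold and the start and end on it, and 51 were transcribed features of stretches that the files call the AC, BD and YB walks. No source used here gives the genome build of these positions, and the files do not pair the features with gene names. At most 2 features in each direction are therefore named per comparison by rule, by their scaffold positions, and any others are said to be singled out after their values were seen. No function can be given for any of them. For the same reason the labelled tissue could not be checked against marker genes and was checked by correlation between arrays. Levels are log2 intensities after quantile normalization over the 96 arrays, on which the lower 5% of features lay under 3.11, the median was 6.88 and the upper 5% lay above 12.06. A level of 1 feature is not set against that of another. Differences are plesseni minus malleti on the log2 scale, so a positive value is higher in plesseni. A feature was called when limma's adjusted p, taken over all 12832 features, was under 0.05.

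Of the 6 arrays, 2 stood apart from their group. Over all features, plesseni replicates 10 and 84 correlated with each other at r = 0.991, and replicate 80 correlated with them at 0.934 and 0.933. Malleti replicates 9 and 83 correlated at 0.988, and replicate 79 correlated with them at 0.914 and 0.920, below the 0.956 between plesseni replicate 10 and malleti replicate 9. Set against the means of all groups, malleti replicate 79 was most like plesseni of the same section and day (r = 0.949) and its own group came 7th in order, with 0.920. Plesseni replicate 80 was most like plesseni hindwing of day 3 (r = 0.952), with its own group 4th at 0.935. Malleti replicate 9 was most like malleti hindwing of day 3, and replicates 10, 84 and 83 were most like their own groups. Median deposited intensities before normalization were 116, 70.4 and 151 for plesseni replicates 10, 80 and 84, and 96.3, 62.6 and 115 for malleti replicates 9, 79 and 83, so the pair that stood apart was also the dimmest of each race. The mean of the median log2 intensities was 6.74 in plesseni and 6.47 in malleti (exact two-sided permutation test, p = 0.5, where 0.1 is the smallest p that 3 against 3 can give), and plesseni was the brighter array for each couple of consecutive numbers (10 and 9, 80 and 79, 84 and 83). Results are given with and without replicates 79 and 80 where these matter, an alternative chosen after seeing the data.

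The races differed at 30 features in the proximal forewing on day 3, which is 0.234% of the 12832 tested. Of these, 21 (0.164%) were higher and 9 (0.0701%) were lower in plesseni, and all 30 differed at least 2-fold. The differences were large: the median was 3.99 on the log2 scale over the 21 higher features, with a range from 1.76 to 6.35, and -3.30 over the 9 lower features, with a range from -4.54 to -2.21. Over all features the median difference was -0.03, and 590 features had an unadjusted p under 0.05. The 30 features lay on 30 different scaffolds, and 26 of them were measured by 9 probes each. The next features in order of p, just outside the threshold, had adjusted p of 0.0506, 0.0601 and 0.0601 in limma.

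The lists lay at different places on the scale. The 21 higher features had group means between 5.12 and 12.96 in plesseni (median 9.75), against 3.35 to 9.88 in malleti (median 5.07). The 9 lower features had means between 3.12 and 6.32 in plesseni (median 3.72), against 5.60 to 9.90 in malleti (median 7.34). The lower list was thus near the bottom of the scale in plesseni, where the median of its means lay close to the 5% point of the array. The files used here do not state which levels are above background. The 3 plesseni arrays did not overlap with the 3 malleti arrays at any of the 30 features, with gaps of 0.59 to 5.16 in the higher list and 0.83 to 2.88 in the lower list. Among all features, 14.2% did not overlap.

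**Figure D1:**
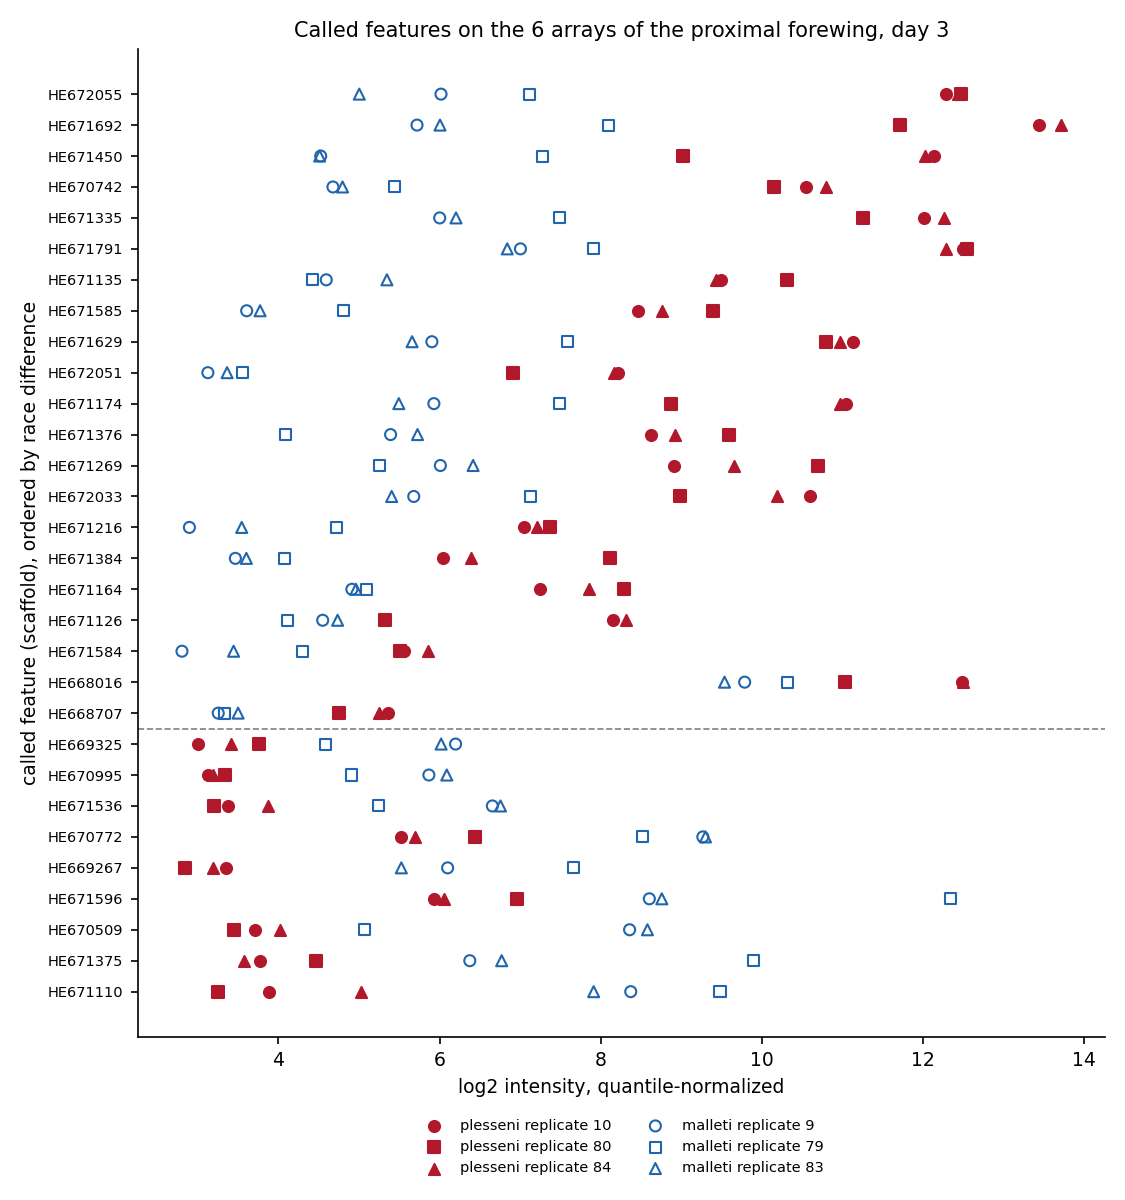
Log2 intensity (horizontal) of the 30 called features (vertical, by scaffold, ordered by race difference) on each array, with plesseni as filled red and malleti as open blue symbols; squares are replicates 80 and 79, and the dashed line parts the 21 features higher in plesseni from the 9 lower ones. The races are separate in every row, with gaps of 0.59 to 5.16 above the line and 0.83 to 2.88 below it, and in many rows the squares lie nearest to the other race.

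HE672055:174650-177457, a predicted gene measured by 9 probes, had the largest difference among the called features. It stood at 12.28, 12.48 and 12.44 in plesseni replicates 10, 80 and 84, against 6.02, 7.12 and 5.00 in malleti replicates 9, 79 and 83. The plesseni arrays lay within a narrow high band and the malleti arrays were scattered below it without overlap. The difference was 6.35 ± 1.25 (SE, 81.6-fold; limma, adjusted p = 0.00400). HE671692:69501-70133, also of 9 probes, stood at 13.44, 11.72 and 13.71 in plesseni replicates 10, 80 and 84, against 5.72, 8.10 and 6.01 in malleti replicates 9, 79 and 83. Its difference was 6.35 ± 1.25 (SE, 81.4-fold; limma, adjusted p = 0.00400), and here replicates 80 and 79 were the arrays of each race nearest to the other. Without them the differences were 6.85 for HE672055 and 7.71 for HE671692 (limma, adjusted p = 0.0143 and 0.00486).

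In the lower list, HE671110:102069-119223 had the largest change among the called features. It stood at 3.88, 3.25 and 5.03 in plesseni replicates 10, 80 and 84, against 8.37, 9.48 and 7.91 in malleti replicates 9, 79 and 83. All plesseni arrays were low and all malleti arrays were near or above the middle of the scale. The difference was -4.54 ± 1.01 (SE, 23.2-fold lower; limma, adjusted p = 0.0211). HE671375:533560-537993 stood at 3.77, 4.46 and 3.58 in plesseni replicates 10, 80 and 84, against 6.38, 9.89 and 6.77 in malleti replicates 9, 79 and 83, with replicate 79 well above the other malleti arrays. The difference was -3.74 ± 0.88 (SE, 13.4-fold lower; limma, adjusted p = 0.0335). Both calls were lost without replicates 79 and 80, where the differences were -3.69 and -2.90 (limma, adjusted p = 0.325 and 0.419), and with consecutive replicate numbers as a block (adjusted p = 0.0517 and 0.0782), also chosen after seeing the data.

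The arrays that stood apart were often those nearest to the other race. Malleti replicate 79 was the malleti array closest to plesseni at 21 of the 30 features, and plesseni replicate 80 was the plesseni array closest to malleti at 17. Without both arrays limma called 66 features, of which 21 were among the 30, and without either 1 it called 46. Leaving out 1 of the other arrays gave 9 features without malleti replicate 9, 10 without plesseni replicate 10, 7 without malleti replicate 83 and 17 without plesseni replicate 84. The 6 arrays were spread over 5 slides, and 1 slide held both races, with plesseni replicate 84 and malleti replicate 79. Within that slide the medians of the differences were 4.20 in the higher list and -2.82 in the lower list; the signs were fixed by the choice of features, whose groups do not overlap, and nothing is read from them. Malleti replicate 9 was scanned at a detector gain of 460 and the other 5 arrays at 440, and with only the arrays of the main gain 14 features were called.

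The scale also mattered for the balance of directions. On the deposited log2 scale 22 features were called, 19 higher and 3 lower in plesseni, and the median over all features was 0.14, against -0.03 after quantile normalization. After centring each array on its median 26 features were called, 20 higher and 6 lower, with a median over all features of -0.13. The features that were called in all 20 settings numbered 2, and they are named here after their values were seen. HE670742:684369-689026 stood at 10.55, 10.15 and 10.80 in plesseni replicates 10, 80 and 84, against 4.68, 5.44 and 4.80 in malleti replicates 9, 79 and 83. HE671791:10674-13445 stood at 12.49, 12.54 and 12.29 in plesseni replicates 10, 80 and 84, against 7.00, 7.91 and 6.84 in malleti replicates 9, 79 and 83. Both had tight groups far apart, with differences of 5.53 ± 1.03 and 5.19 ± 0.98 (SE, 46.1-fold and 36.5-fold). HE671585:190146-192062, described further below, was tested in 19 settings and called in all 19.

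The largest difference downward belonged to a feature that was not called, HE671659:40618-42288, also named after its values were seen. It stood at 3.59, 4.03 and 3.78 in plesseni replicates 10, 80 and 84, against 10.72, 8.99 and 10.62 in malleti replicates 9, 79 and 83. The groups did not overlap and lay farther apart than those of any called feature of the lower list. The difference was -6.31 ± 2.23 (limma, adjusted p = 0.410), where the SE comes from the spread within all 32 groups and not from these 6 arrays alone.

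The features next to the called ones were also looked at. For 29 of the 30 the scaffold held adjacent features without overlap, 52 in all, and 0 of these 52 were called, where 0.234% of all features were. At an unadjusted limma p under 0.05 in the direction of the called feature there were 5 of the 52 (9.62%), where 2.63% of all features were higher and 1.96% lower in plesseni at that p. Of the 52, 29 differed in the direction of the called feature, and the median difference in that direction was 0.11. The largest, named after its values were seen, was HE671450:57098-59615, which begins 5108 bases after the end of a called feature. It stood at 11.04, 6.15 and 10.77 in plesseni replicates 10, 80 and 84, against 4.06, 6.46 and 4.65 in malleti replicates 9, 79 and 83, and only replicates 80 and 79 overlapped. The difference was 4.27 ± 1.33 (SE; limma, adjusted p = 0.237). The called feature beside it, HE671450:48860-51990, stood at 12.13, 9.03 and 12.02 in plesseni replicates 10, 80 and 84, against 4.53, 7.28 and 4.51 in malleti replicates 9, 79 and 83. At both features replicates 80 and 79 were the arrays of each race nearest to the other. At the called feature they did not overlap.

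In the proximal forewing the 30 features were described on the other sampled days as well. Their median difference was 1.16 on day 1, 3.99 on day 3, 0.00 on day 5 and 0.14 on day 7 in the higher list, and -0.02, -3.30, 0.03 and 0.26 on the same days in the lower list. The value of day 3 is the one by which the features were chosen, so that it had to be large beside the others. On day 1, 16 of the 21 higher features were also higher in plesseni and 5 of the 9 lower ones were lower, against 45.8% and 54.2% of all features. Of the 30, 1 was called on day 1, when 0.538% of all features were called. It was HE671135:357775-363080, named after its values were seen, with 9.98 ± 0.18 in plesseni and 4.95 ± 0.16 in malleti on that day (SD, n = 3 each; limma, adjusted p = 0.0237). Of the 30, 0 were called on day 5 or day 7, when 0.00779% and 0.0312% of all features were.

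**Figure D2:**
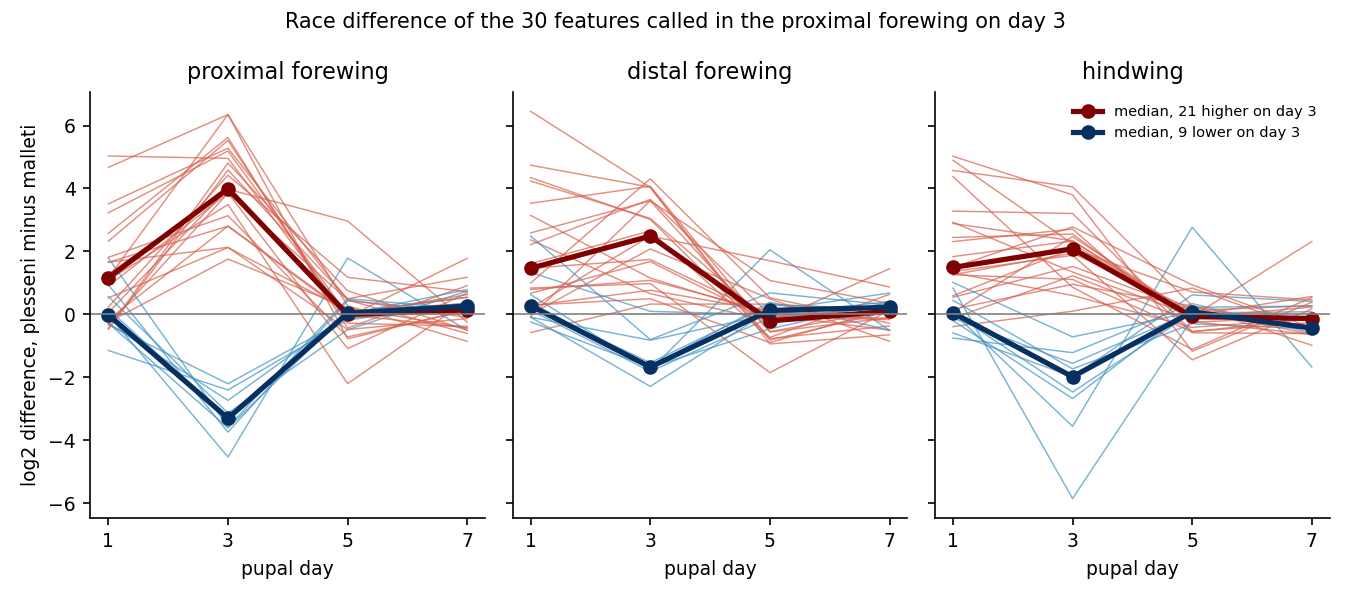
Log2 difference between the races, plesseni minus malleti (vertical), of the 30 called features on 4 pupal days (horizontal) in 3 wing sections; thin lines are features, and thick lines are medians of the 21 features higher (red) and the 9 lower (blue) in plesseni in the proximal forewing on day 3. Medians of 3.99 and -3.30 on day 3 in the proximal forewing stand beside 2.49 and -1.67 in the distal forewing and 2.08 and -1.99 in the hindwing, and those of day 5 lie near 0 in all 3 sections.

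The features with the largest differences followed different courses. HE672055:174650-177457 had mean levels of 5.24 ± 1.29, 12.40 ± 0.10, 7.02 ± 2.07 and 8.61 ± 0.60 in plesseni on days 1, 3, 5 and 7 (SD, n = 3 each), against 4.08 ± 0.61, 6.05 ± 1.06, 6.75 ± 1.40 and 9.47 ± 1.06 in malleti. It was therefore at its highest in plesseni on day 3 and in malleti on day 7, and the race difference passed on no other day. HE671692:69501-70133 stood at 13.36 ± 0.22, 12.96 ± 1.08, 11.37 ± 0.97 and 11.73 ± 0.79 in plesseni on these days, against 8.69 ± 0.02, 6.61 ± 1.30, 12.15 ± 0.50 and 11.58 ± 2.40 in malleti. Here plesseni was high throughout, and malleti stood lower on days 1 and 3 and about as high as plesseni on days 5 and 7. The malleti mean of day 1 lay above the array median of 6.88 and that of day 3 just under it. On day 1 its difference of 4.67 ± 1.25 was just outside the threshold (SE; limma, adjusted p = 0.0606).

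Of the 9 features lower in plesseni, 8 had their highest malleti mean on day 3 and 1 on day 5, which is a description, since the choice by day 3 favours it. HE671110:102069-119223 stood at 4.01 ± 0.31, 4.05 ± 0.90, 5.87 ± 0.92 and 4.63 ± 0.56 in plesseni on days 1, 3, 5 and 7 (SD, n = 3 each), against 4.03 ± 0.55, 8.59 ± 0.81, 4.08 ± 0.22 and 5.14 ± 2.24 in malleti. HE671375:533560-537993 stood at 5.38 ± 1.07, 3.94 ± 0.47, 3.46 ± 0.70 and 3.49 ± 0.51 in plesseni, against 4.44 ± 0.26, 7.68 ± 1.93, 3.03 ± 0.11 and 3.41 ± 0.46 in malleti. Apart from malleti on day 3, all these means lay under the array median of 6.88.

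**Figure D3:**
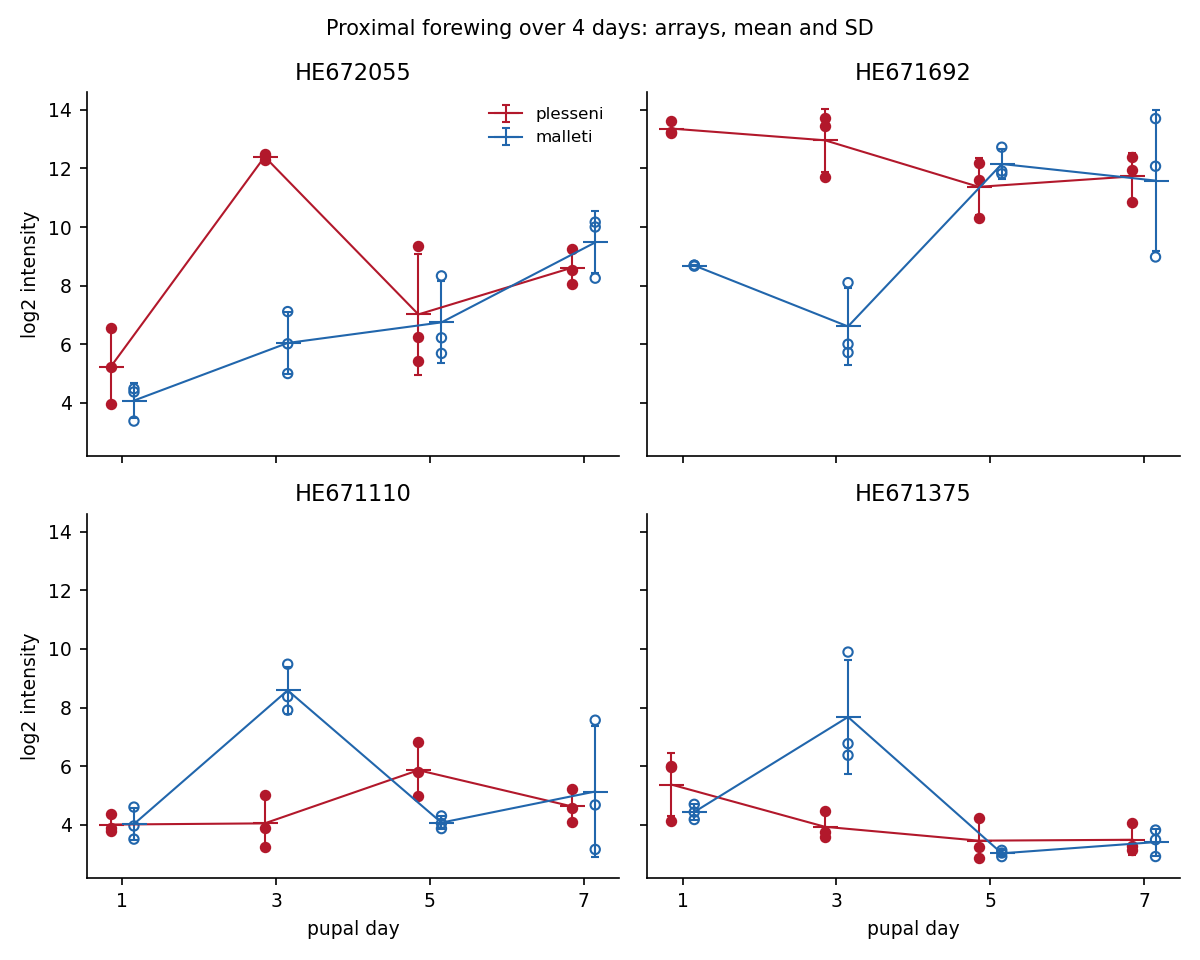
Log2 intensity (vertical) of the 4 features named for the race comparison over pupal days 1, 3, 5 and 7 (horizontal) in the proximal forewing, with plesseni (filled red) left of malleti (open blue); points are arrays, and horizontal marks with bars are the mean and SD of 3 arrays. HE672055 peaks in plesseni on day 3 at 12.40, HE671692 stands lower in malleti than in plesseni on days 1 and 3, and the lower pair peaks in malleti on day 3 at 8.59 and 7.68.

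Whether the race difference itself changed with the day was tested as day 3 minus the mean of days 1, 5 and 7. In limma 6 features passed, 0.0468% of all, and 1 of them had a positive and 5 a negative value. Of the 6, 5 are among the 30, a share that rests in part on the same arrays of day 3. HE671585:190146-192062 stood at 8.46, 9.39 and 8.76 in plesseni replicates 10, 80 and 84 on day 3, against 3.61, 4.81 and 3.77 in malleti replicates 9, 79 and 83, with tight groups that did not overlap. On days 1, 5 and 7 its means lay between 3.52 and 5.35 in plesseni and between 3.96 and 4.61 in malleti. The race difference of day 3 exceeded that of the other days by 4.88 ± 0.95 (SE; limma, adjusted p = 0.00834).

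Among the negative values, HE670851:99401-104621 had the largest, although its race difference on day 3 was itself not called (-3.22 ± 0.96, SE; limma, adjusted p = 0.188). It stood at 8.38, 5.54 and 8.34 in plesseni replicates 10, 80 and 84, against 10.98, 10.19 and 10.74 in malleti replicates 9, 79 and 83, with replicate 80 lowest of all. On day 5 the order of the races was turned, at 11.99 ± 0.99 in plesseni and 8.40 ± 0.77 in malleti (SD, n = 3 each). Day 3 differed from the other days by -5.18 ± 1.11 (SE; limma, adjusted p = 0.0328), by -4.46 without replicates 79 and 80 (adjusted p = 0.171), and by -5.07 with consecutive numbers as a block (adjusted p = 0.139). HE671596:14825-15462, measured by 6 probes, stood at 5.93, 6.96 and 6.06 in plesseni replicates 10, 80 and 84, against 8.60, 12.34 and 8.76 in malleti replicates 9, 79 and 83. Its day value was -4.40 ± 0.89 (SE; limma, adjusted p = 0.0129), and -3.51 without replicates 79 and 80 (adjusted p = 0.134), and it passed in 29 of 37 settings. The count of 6 was 19 without both arrays, 19 without malleti replicate 79 alone and 2 without malleti replicate 9 or 83, and it was 0 on the deposited scale and 0 after centring on array medians.

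The distal forewing and the hindwing of day 3, which were measured on other arrays, were set beside the proximal forewing. The 21 higher features had the same sign in 21 of 21 cases in both sections, and the 9 lower features in 8 of 9 cases in the distal forewing and 9 of 9 cases in the hindwing. The median differences of the higher list were 2.49 in the distal forewing and, for the hindwing, 2.08, and those of the lower list were -1.67 and -1.99. At an unadjusted limma p under 0.05 in the same direction, 15 of the 21 higher features passed in the distal forewing and 15 did so in the hindwing, where 8.71% and 1.95% of all features did. Of the 9 lower features, 5 and 8 passed, where 6.59% and 1.88% of all features did. Over the 12832 features the race difference of the proximal forewing correlated with that of the distal forewing at r = 0.332 and with that of the hindwing at 0.430, a description across features, which are not independent replicates.

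Few of the 30 features passed the adjusted threshold in those sections. Limma called 3 features in the distal forewing (0.0234%), all higher in plesseni, and 1 of them, HE671629:197544-203562, was among the 30. Its difference was 4.58 ± 0.90 in the proximal forewing and 4.31 ± 0.90 in the distal forewing (SE; limma, adjusted p = 0.00400 and 0.0383). The distal call of HE671629 was kept in 9 of 18 settings, with a difference as low as 0.70. The other distal calls were HE667780:571676-572649, with 7.17 ± 0.40 in plesseni and 2.74 ± 0.32 in malleti, and HE671488:141508-147000, with 7.03 ± 0.81 in plesseni and 4.23 ± 1.38 in malleti (SD, n = 3 each; limma, adjusted p = 0.00422 each). In the proximal forewing these features differed by 2.56 ± 0.81 and 0.64 ± 0.51 (SE) and did not pass. The distal count was 6 with consecutive replicate numbers as a block, 1 without plesseni replicate 56, 5 without plesseni replicate 34, 1096 without malleti replicate 11 and 1237 without malleti replicate 33.

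In the hindwing limma called 11 features (0.0857%), 3 higher and 8 lower in plesseni, of which 2 lower ones were among the 30. HE671596:14825-15462, called in the proximal forewing too, had the largest hindwing difference, with 5.69 ± 1.00 in plesseni and 11.54 ± 0.39 in malleti (SD, n = 3 each), a difference of -5.85 ± 0.77 (SE; limma, adjusted p = 1.38e-06). HE667780:571676-572649 was higher in plesseni in the hindwing as well, by 3.95 ± 0.81 (SE; limma, adjusted p = 0.0112). HE669453:1577-4295 was higher by 3.92 ± 0.85 in the hindwing (limma, adjusted p = 0.0278) and by 2.93 ± 0.85 in the proximal forewing (SE), where it did not pass. HE671321:223298-223369, measured by 1 probe only, had a hindwing difference of -3.98 ± 0.83 (SE; limma, adjusted p = 0.0137) and a proximal difference of -0.83 ± 0.83. Its proximal level was 5.83 in malleti replicate 79 and between 2.19 and 3.60 on the other arrays, near the bottom of the scale. The other shared feature, HE669325:179389-180746, was named after its values were seen and stood at 3.46 ± 0.46 in plesseni and 6.14 ± 0.95 in malleti in the hindwing (SD, n = 3 each; limma, adjusted p = 0.00308). The hindwing count was 6 without plesseni replicate 32, 6 without malleti replicate 35 and 5 without malleti replicate 57. All 3 malleti hindwing arrays and 1 of the 3 plesseni hindwing arrays of day 3 were scanned at the gain of 460, and the part of the gain in these calls was not tested.

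Some arrays of those sections are among 12 arrays of the series that were doubted in earlier results. How they compare with their groups over all features is not shown here. The distal groups hold the doubted plesseni replicate 34 and malleti replicate 55, and the hindwing groups hold plesseni replicate 32. Without the 12 doubted arrays, 8 of the 21 higher and 0 of the 9 lower features were called in the distal forewing, where 0.179% of all features were, with median differences of 3.47 and -1.39. In the hindwing 0 of the 21 and 2 of the 9 were called in that setting, where 0.125% of all features were, with medians of 1.65 and -1.76. HE672055:174650-177457 shows the spread: it stood at 12.12, 6.83 and 11.98 in plesseni distal replicates 12, 34 and 56, against 6.57, 4.93 and 7.32 in malleti distal replicates 11, 33 and 55. In the hindwing it stood at 12.11, 12.11 and 4.87 in plesseni replicates 32, 36 and 58, against 5.66, 5.76 and 5.51 in malleti replicates 31, 35 and 57. In each section 2 of the 3 plesseni arrays were close to the level of the proximal forewing, and 1 lay near malleti. In the hindwing that array was replicate 58, which is not among the 12 doubted arrays and so stayed in that setting. The doubted replicate 32, which that setting leaves out, was close to the proximal level at this feature. In the eye on day 3, 11 of the 21 higher and 2 of the 9 lower features had the same sign as in the proximal forewing, with medians of 0.04 and 0.95, where 48.6% of all features were higher and 51.4% lower in plesseni. The eye groups hold the doubted replicates 8 and 60, and without the 12 doubted arrays 11 of the 21 and 3 of the 9 had the same sign, with medians of 0.00 and 0.08.

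Whether the race difference of the proximal forewing differed from the mean of the other sections was tested directly. In limma 0 features passed (0%), and 180 had an unadjusted p under 0.05; with array weights 259 passed. The smallest p of each direction belonged to HE671992:5361-22435, with a contrast of 2.01 ± 0.57 (SE), and to HE671375:533560-537993, and neither passed. HE671375 differed by -3.74 ± 0.88 in the proximal forewing (SE). It differed by 0.09 ± 0.88 in the distal forewing and by -0.72 ± 0.88 in the hindwing (SE). Its contrast was -3.43 ± 1.07 (limma, adjusted p = 1.00). Distal plesseni replicates 12, 34 and 56 stood at 3.46, 7.31 and 4.82. Distal malleti replicates 33 and 55 stood at 3.24 and 4.56, and replicate 11 above all of these. In the hindwing plesseni replicates 32, 36 and 58 stood at 5.36, 3.45 and 8.21, against 7.24, 6.31 and 5.61 in malleti. In each section 1 plesseni array stood high, so an absence of the difference there is not shown. Without the doubted arrays all 9 lower features were lower in plesseni in the distal forewing. That most called features had smaller differences in the other sections follows in part from their choice by the proximal arrays, and nothing is read from it.

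**Figure D4:**
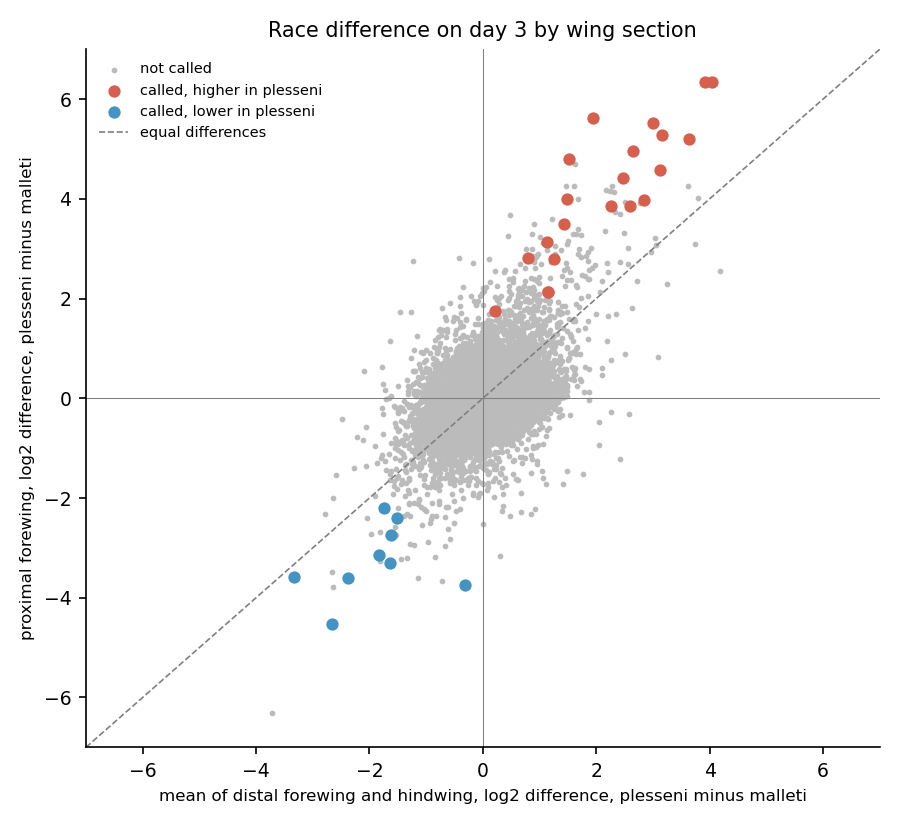
Log2 difference between the races, plesseni minus malleti, on day 3 in the proximal forewing (vertical) against the mean of distal forewing and hindwing (horizontal), for all 12832 features (grey) and the features called in the proximal forewing, 21 higher (red) and 9 lower (blue) in plesseni; the dashed line marks equal differences. All 30 called features lie in the quadrants of equal sign, and 0 features passed the test of the difference between sections.

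On day 1 most of the higher list also stood higher in plesseni in the other sections. It had the same sign at 18 of 21 features in the distal forewing and at 19 of 21 in the hindwing, with medians of 1.47 and 1.49, where 46.3% and 49.6% of all features were higher in plesseni. Of the 21, limma called 2 in the distal forewing but 0 in the hindwing, where 0.140% and 0.0156% of all features were called. HE672055:174650-177457 differed by 6.45 ± 1.25 in the distal forewing on day 1, with 10.86 ± 0.74 in plesseni and 4.41 ± 0.13 in malleti (SD, n = 3 each; limma, adjusted p = 0.00386). In the proximal forewing on that day it differed by 1.16 ± 1.25 and did not pass; the difference between the sections on day 1 was not tested. The other distal call, named after its values were seen, was HE671126:24135-30520, with 7.17 ± 0.39 in plesseni and 4.03 ± 0.26 in malleti (SD, n = 3 each; limma, adjusted p = 0.0133). The lower list had medians of 0.27 and 0.05 on day 1 in the distal forewing and the hindwing, and 3 and 4 of its 9 features had the same sign. In the eye on day 1, 17 of the 21 higher and 6 of the 9 lower features had the same sign, with medians of 0.84 and -0.31. Limma called 4 of the 21 and 0 of the 9 there, beside 197 of all 12832 features. Without the 12 doubted arrays the same sign was seen at 17 of the 21 and 3 of the 9, with medians of 1.17 and 0.17. In that setting 5 of the 21 and 0 of the 9 were called in the eye, beside 331 of all features.

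How the 30 features change with time was described in the distal forewing and hindwing over both races, on arrays that the proximal comparison does not use. Of the 9 features lower in plesseni, 6 rose from day 1 to day 3 and 0 fell, where 10.8% of all features rose and 12.3% fell. From day 3 to day 5, 7 of the 9 fell and 1 rose, where 18.7% of all features fell and 14.6% rose. A rise to day 3 followed by a fall to day 5 was seen at 5 of the 9, against 5.32% of all features. In the list of 21 higher features, 2 rose and 6 fell by day 3, and 8 rose and 3 fell by day 5. A fall followed by a rise was seen at 4 of the 21, against 3.26% of all features. On the deposited scale and after centring on array medians, 5 of the 9 rose by day 3 and 3 fell by day 5. Each step is a mean over both races. It therefore contains the day 3 level of malleti, and opposite moves of the races can cancel in it. These counts describe the lists, and no test of the lists was made.

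HE671375:533560-537993 fell by 2.40 from day 3 to day 5 in these sections, and HE671692:69501-70133 rose by 2.79 at that step (limma, adjusted p = 7.09e-06 and 2.16e-04). The rise of HE671692 was mostly in malleti in both sections. In the hindwing malleti went from 8.82, 5.74 and 5.75 to 11.26, 12.74 and 12.23. Plesseni there went from 10.97, 13.55 and 7.18 to 11.69, 10.35 and 10.67. HE671110:102069-119223 rose by 1.65 from day 1 to day 3 (limma, adjusted p = 0.0103), and its change of -0.19 from day 3 to day 5 did not pass. In the hindwing malleti stood at 4.46, 4.08 and 3.68 on day 1 and at 8.30, 7.95 and 7.58 on day 3. By day 5 malleti was at 4.07, 3.92 and 3.83 there. Hindwing plesseni stood at 4.03, 3.87 and 4.49, then 5.15, 3.79 and 4.22, then 9.07, 7.29 and 3.76. In the distal forewing malleti replicate 33 stayed at 3.83 on day 3. HE672055:174650-177457 changed by 0.65 and -0.10 at these steps and passed at neither. From day 3 to day 5 the means of its races moved in opposite directions. In the distal forewing plesseni went from 12.12, 6.83 and 11.98 to 7.21, 8.21 and 6.74. Malleti there went from 6.57, 4.93 and 7.32 to 9.20, 8.26 and 7.52. In the hindwing plesseni went from 12.11, 12.11 and 4.87 to 9.89, 6.79 and 7.44. Malleti there went from 5.66, 5.76 and 5.51 to 7.18, 8.27 and 7.86.

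The walks held 0 features that passed the race comparison in the proximal forewing on day 3. Of 16 transcribed features in the AC walk, 22 in the BD walk and 13 in the YB walk, each measured by 3 probes, limma called 0. With array weights 11 walk features were called, beside 3373 of all features; leaving out the 12 doubted arrays gave 1, and the other settings run gave 0. Their median differences were 0.04, 0.17 and -0.23, and 2, 0 and 0 of them had an unadjusted p under 0.05, where 4.60% of all features did. Differences of at least 2-fold were seen at 3, 2 and 1 features, and 8.72% of all features reached that size.

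**Figure D5:**
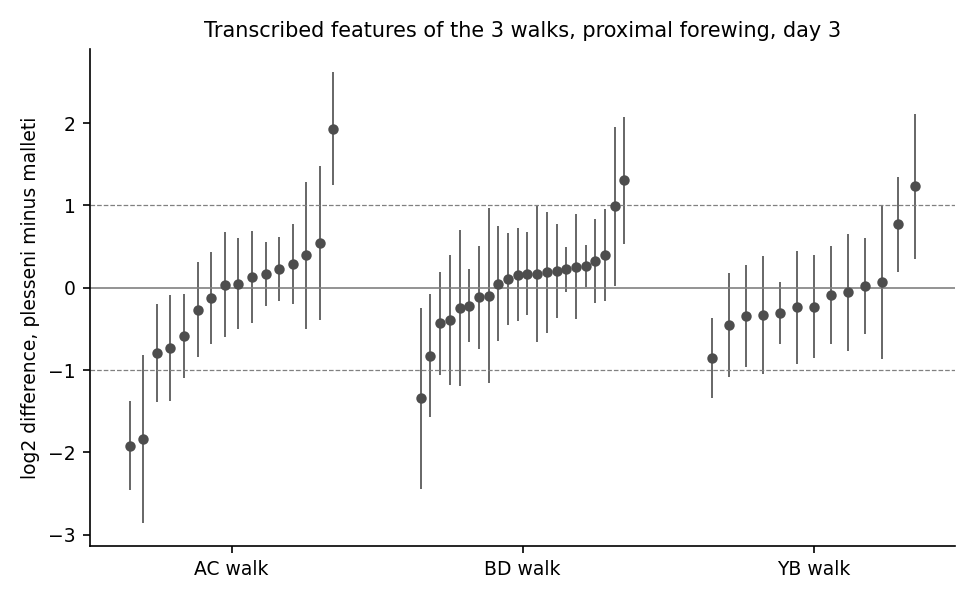
Log2 difference between the races, plesseni minus malleti (vertical), of the transcribed features of the AC, BD and YB walks (horizontal, ordered by difference within each walk) in the proximal forewing on day 3; bars are SE from the limma fit and dashed lines mark 2-fold. Most features lie within 1 of 0, and the extremes are -1.92 and 1.93, both in the AC walk.

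In the AC walk, the feature at 450400-483854 stood at 3.68, 4.16 and 4.49 in plesseni replicates 10, 80 and 84, against 6.22, 5.76 and 6.09 in malleti replicates 9, 79 and 83. The groups did not overlap, and the difference was -1.92 ± 0.53 (SE, 3.77-fold lower; limma, adjusted p = 0.128), with an adjusted p of 0.0412 without the 12 doubted arrays. A predicted gene with the same start and end, on scaffold HE668478 and measured by 9 probes, differed by -0.52 ± 0.48 (SE), so the probe sets gave unequal values. The feature at 495897-498544 stood at 3.59, 8.45 and 2.87 in plesseni replicates 10, 80 and 84, against 2.66, 3.34 and 3.10 in malleti replicates 9, 79 and 83. Its difference of 1.93 ± 0.69 (SE; limma, adjusted p = 0.429) came from replicate 80 alone and was 0.20 without that array. The predicted gene with the same positions differed by 2.13 ± 0.59 (SE; limma, adjusted p = 0.126). It was read on the same arrays, and whether its difference also came from replicate 80 was not tested.

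The other extremes of the AC walk were 292749-297843, with 7.54, 5.28 and 7.99 in plesseni replicates 10, 80 and 84 against 8.22, 9.67 and 8.43 in malleti replicates 9, 79 and 83, and 400264-402628, with a difference of 0.54 ± 0.94 (SE). The groups of 292749-297843 did not overlap, and its difference of -1.84 ± 1.02 did not pass (SE; limma, adjusted p = 1.00). The predicted gene with the positions of 292749-297843, measured by 9 probes, differed by -0.94 ± 0.66, and that of 400264-402628 by 0.48 ± 0.83 (SE). In the BD walk the differences ran from -1.34 ± 1.10 at 518010-518813 and -0.83 ± 0.75 at 566679-567658 to 0.99 ± 0.97 at 571903-572610 and 1.30 ± 0.78 at 270714-272686 (SE). The highest of these again held 1 high array, with 5.31, 8.10 and 4.58 in plesseni replicates 10, 80 and 84, against 4.14, 5.35 and 4.59 in malleti replicates 9, 79 and 83. In the YB walk they ran from -0.85 ± 0.49 at 674530-682676 and -0.45 ± 0.63 at 716118-739134 to 0.77 ± 0.58 at 742267-747915 and 1.23 ± 0.88 at 449912-464173 (SE). The YB feature at 449912-464173 stood at 11.15, 9.69 and 10.58 in plesseni replicates 10, 80 and 84, against 9.52, 8.96 and 9.24 in malleti replicates 9, 79 and 83, without overlap. On the same day in the hindwing, the YB feature at 674530-682676 differed by -1.71 ± 0.49 (SE; limma, adjusted p = 0.340) and the AC feature at 292749-297843 by -2.98 ± 1.02 (adjusted p = 0.696).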

How the data were processed

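The authors deposited 1 linear intensity per feature and array, summarised from 60-base probes with RMA per the submitters' processing notes, without a version; its settings, background correction included, are not stated there. Groups, days and replicate numbers came from the labels, and slide and detector gain from the names of the array files. Because median intensities over the 96 arrays ran from 23.0 to 376, the log2 of each deposited intensity was quantile-normalized over the 96 arrays with limma 3.58.1 in R 4.3.3. A model with 32 group means (64 residual degrees of freedom) was fitted to all arrays, contrasts were tested with eBayes, and p-values were adjusted by Benjamini-Hochberg over all 12832 features at a threshold of 0.05. The arrays' number limits the precision. Replicates are labelled independent; if individuals are shared between sections, the tests do not allow for it.

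Of the 12832 identifiers 0 matched the gene table supplied (assembly ASM5695672v1), so gene lists and cell type markers could not be looked up. Named features are the 2 higher and 2 lower ones with the largest change among those called in each comparison, or, with 0 called, the smallest p in each direction, and the 2 highest and 2 lowest of each walk. The comparison, the named-feature rule and the list of 12 doubted arrays (0 of them among the 6) were chosen with earlier results of these data known. Alternatives were no scaling beyond the deposited log2 values, centring each array on its median, fewer arrays in the fit, slide as a block, the main gain only, leaving out the lowest 25% of features, eBayes options, array weights, consecutive replicate numbers as a block and each array left out. The procedure was tested on simulated data with independent noise for each feature and array. These data held no arrays that stand apart and no slide or gain effects.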

Additional observations from a re-analysis of the deposited data

Results flagged for a closer look

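For 6 features the race difference in the proximal forewing on day 3 differed from that of the other sampled days, by a test of the change itself (day 3 minus the mean of days 1, 5 and 7, limma). On the deposited scale and after centring on array medians 0 passed. The value was 4.88 for HE671585:190146-192062, -5.18 for HE670851:99401-104621 and -4.40 for HE671596:14825-15462. Dixon's criterion for a single far value was not applied to the groups of 3 arrays.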

How the results depend on the processing

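The 30 features called in the proximal forewing on day 3 numbered 47 with only the 72 wing arrays in the fit, 104 without the 12 doubted arrays, 14 with the main gain only, 66 without malleti replicate 79 and plesseni replicate 80, and 3373 with array weights, whose estimation stopped before it converged. Leaving out 1 array gave 7 to 46. The 6 features whose race difference changed with the day numbered 0 on the deposited scale, 0 after centring, 21 with only the groups of the contrast, 27 without the doubted arrays, 1 without the lowest 25% of features, 19 without replicates 79 and 80, 2217 with array weights, and 2 to 19 with 1 array left out, with the extremes at malleti replicates 9 and 83 (2 each) and 79 (19). The section contrast, 0 in the main setting, was 259 with array weights and 0 in all other settings run. The 3 distal calls were 0 on the deposited scale, 0 after centring, 0 with only the groups of the contrast, 0 without the lowest features, 334 with the wing arrays only, 23 without the doubted arrays, 10 at the main gain, 142 with array weights, and 1 to 1237 with 1 array left out (1 without plesseni replicate 56, 1237 without malleti replicate 33, 1096 without malleti replicate 11). The 11 hindwing calls were 1 on the deposited scale, 2 after centring, 0 with only the groups of the contrast, 7 with slide as a fixed block, 2 without the lowest features, 1109 with array weights, and 5 to 14 with 1 array left out (5 without malleti replicate 57, 14 without malleti replicate 31; 6 without plesseni replicate 32 and 6 without malleti replicate 35). The walks, with 0 calls, had 1 without the doubted arrays, 11 with array weights and 0 in the other settings run, of which all but the 2 scaling alternatives were added after seeing the data. The cause of these changes was not tested.

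Of the features named, HE672055 kept its call in 19 of 20 settings, HE671692 in 17 of 20, HE671110 in 11 of 20 and HE671375 in 8 of 19. Their adjusted p in limma ran up to 0.0738, 0.0798, 0.325 and 0.419. The AC feature at 450400-483854 passed in 2 of 20 settings, and 6 other walk features named passed with array weights. Of the distal calls, HE671629 was kept in 9 of 18 settings, HE667780 in 12 of 17 and HE671488 in 9 of 17. Of the hindwing calls named by rule, HE671596 was kept in 16 of 17 settings and HE667780 in 10 of 16. The hindwing call of HE669453 was kept in 7 of 17 and that of HE671321 in 9 of 16. No replicate number occurs more than once, but consecutive numbers joined the races of 1 tissue and day in 46 of 48 couples, and a fit with them as a replicate block was added after seeing the data. It called 24 features in the proximal forewing, 18 of them among the 30, 5 for the day contrast, 0 for the section contrast, 6 for the distal and 9 for the hindwing comparison. The deviations from the group means correlated at 0.34 for replicates 10 and 9, 0.26 for 80 and 79 and 0.17 for 84 and 83, and over the 46 couples from -0.30 to 0.59 (median 0.06), above 0.1 in 19; the labels do not say that the couples share a source. The main-gain alternative could not be fitted for the hindwing or the section contrast, since all 3 malleti hindwing arrays of day 3 were scanned at the other gain.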
